A study of Mus musculus with 20 samples.

Results

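The 10 genes of the Toll-like receptor system described here were followed through the hippocampus of mice with and without miR-34a and with and without an amyloid transgene. They were taken from the table by gene symbol and are Tlr1, Tlr2, Tlr4, Tlr6, Tlr7, Tlr8, Tlr9 and Tlr13, the co-receptor gene Cd14 and the adaptor gene Myd88, that is, 10 of the 39056 genes in the count table. Of the 10, 9 passed the filter on low counts and entered the fit of 16107 genes, and Tlr8 did not. The libraries came from total RNA of the left hippocampus of female C57BL/6 mice, 1 library per mouse and 5 mice in each of 4 groups. WT Non-Tg mice carried both miR-34a alleles and no transgene, and KO Non-Tg mice were miR-34a-/- with no transgene. WT Tg-SwDI mice carried both miR-34a alleles and the transgene, and KO Tg-SwDI mice were miR-34a-/- and carried it. Tg-SwDI is a model of cerebral amyloid in which the neuronal Thy1 promoter drives human APP with the Swedish, Dutch and Iowa mutations. The miR-34a deletion is constitutive and affects the whole body, so no cell type can be named as the place where miR-34a was lost. The labels give no age for the RNA samples, and the study's behavioural tests were run at 12 months.

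Toll-like receptors are membrane proteins that recognise microbial and damage-associated molecules. Tlr1, Tlr2, Tlr4 and Tlr6 sit at the cell surface, where Tlr2 pairs with Tlr1 or Tlr6 to bind lipopeptides and Tlr4 binds lipopolysaccharide presented by Cd14, while Tlr7, Tlr8, Tlr9 and Tlr13 sit in endosomes and read nucleic acids. Nearly all of them signal through the adaptor Myd88 to NF-kB and interferon regulatory factors, and in the brain most of their transcripts are found in microglia, the resident macrophages.

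The microRNA removed in the KO mice is shown because its seed, in capitals, is the stretch through which it pairs with target transcripts. The mature strand lies at chr4:150068473-150068494 on the plus strand (GRCm38.p6, RefSeq).
mmu-miR-34a-5p: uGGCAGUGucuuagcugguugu
The DNA letters that pair with this seed, CACTGCC, were searched in the longest annotated 3′ untranslated region of each of the 10 genes (GENCODE M21). None of the 10 regions, which ran from 58 bases in Tlr8 to 1321 bases in Tlr4, held them, against 14.25% of 21045 genes with a median region of 960 bases. That says only that these letters are not in these stretches.

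The deposited counts of the 20 libraries summed to between 19549622 and 21066868 per mouse, and the 10 genes together took 374 to 1713 of them. Levels are given as CPM, the counts of a gene relative to the library total, after TMM scaling, which equalises libraries on the bulk of their genes. Tlr1, Tlr4, Tlr6, Tlr8 and Tlr9 had fewer than 100 counts in every library, which limits the precision of their values. The hippocampal neuron markers Slc17a7, Neurod6, Prox1, Rbfox3, Wfs1 and C1ql2 all passed the filter, and Slc17a7, the most abundant, read 1510 ± 57.4 CPM in WT Non-Tg mice (SD, n = 5).

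Some features of the libraries have to be known before the results. The KO Tg-SwDI replicate 8 library had 14.6% of its counts on mitochondrial genes, where the other 19 had 6.94% to 8.76%, and calls of the 9 genes that change without it are given both ways. Markers of the choroid plexus, the secretory tissue of the ventricle next to the hippocampus, summed to between 61.6 and 4342 CPM among WT Non-Tg mice but only to between 64.3 and 349.5 CPM in all 5 KO Non-Tg mice. They summed to at least 2213 CPM in 8 of the 10 Tg-SwDI mice, so the comparison of Tg-SwDI with Non-Tg in KO mice carries this difference with it. Thy1, whose promoter drives the transgene, read 722 ± 23.5 CPM in KO Non-Tg mice, 2177 ± 163 CPM in WT Tg-SwDI mice and 2819 ± 315 CPM in KO Tg-SwDI mice, and the last group lay wholly above the one before it. The part of this Thy1 difference in any result was not tested. The miR-34a hairpin has no row in the counts used here. Just upstream of it lies the non-coding gene Gm13067, chosen with its values in view, which drew 3 to 11 counts in each KO library and 0 to 3 in each WT library.

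Per kilobase of exon, the scale on which different genes can be compared, Myd88 led the set in WT Non-Tg mice at 2.20 ± 0.307 CPM per kb (SD, n = 5). Cd14 followed at 1.52 ± 0.538, Tlr7 at 1.01 ± 0.161, Tlr13 at 0.819 ± 0.215, Tlr2 at 0.722 ± 0.310 and Tlr9 at 0.524 ± 0.147 CPM per kb, and each of these overlapped its neighbour in the order. Tlr4 at 0.322 ± 0.0514 CPM per kb lay below every Tlr9 value, and Tlr1, Tlr6 and Tlr8 were lower still at 0.144, 0.137 and 0.0882 CPM per kb. In KO Tg-SwDI mice the order was another one. Cd14 stood alone at the top at 8.39 ± 1.31 CPM per kb. Tlr2 at 4.11 ± 0.882, Tlr7 at 3.90 ± 1.06, Tlr13 at 3.04 ± 0.474 and Myd88 at 2.55 ± 0.171 CPM per kb came next, with overlap between neighbours. Tlr9 at 1.21 ± 0.212 CPM per kb was below all of those, and Tlr1, Tlr4 and Tlr6 followed at 0.830, 0.541 and 0.323 CPM per kb. Tlr8 stayed last at 0.0718 CPM per kb.

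Promoters, 250 bases before to 50 after an annotated start, were available for 7 of the 10 genes in 9 stretches (RefSeq, GRCm38.p6). They were read because most of these genes moved together, although Myd88 moved little and Tlr8 did not pass the filter. The search was for 3 letter patterns on both strands, namely GAGGAAGT, bound by the myeloid factor PU.1, the core GAAANNGAA of the interferon response element, and TGANTCA, bound by AP-1. A surface receptor, an endosomal receptor and the adaptor are printed, each with a match in capitals.
Tlr1, chr5:64933509-64933808, minus strand: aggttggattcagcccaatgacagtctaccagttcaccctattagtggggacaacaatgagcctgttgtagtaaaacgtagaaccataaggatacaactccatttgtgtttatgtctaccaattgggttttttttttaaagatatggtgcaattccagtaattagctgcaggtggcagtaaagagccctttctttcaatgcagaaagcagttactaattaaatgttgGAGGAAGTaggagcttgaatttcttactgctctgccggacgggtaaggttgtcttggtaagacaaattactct
Tlr9, chr9:106222348-106222647, plus strand: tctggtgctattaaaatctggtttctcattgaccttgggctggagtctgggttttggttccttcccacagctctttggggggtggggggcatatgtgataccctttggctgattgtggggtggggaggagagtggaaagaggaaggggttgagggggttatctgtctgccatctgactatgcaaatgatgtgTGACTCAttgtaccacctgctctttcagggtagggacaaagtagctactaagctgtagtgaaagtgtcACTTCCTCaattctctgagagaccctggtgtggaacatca
Myd88, chr9:119339969-119340268, minus strand: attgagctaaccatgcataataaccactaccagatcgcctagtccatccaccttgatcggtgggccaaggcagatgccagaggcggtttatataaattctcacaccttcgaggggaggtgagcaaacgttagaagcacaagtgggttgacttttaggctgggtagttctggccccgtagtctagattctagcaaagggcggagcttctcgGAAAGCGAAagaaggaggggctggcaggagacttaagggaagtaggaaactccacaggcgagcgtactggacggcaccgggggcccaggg
The capitals in Tlr1 are the PU.1 letters 23 bases before the start of this stretch. Those in Tlr9 are the AP-1 letters 58 bases before it and the PU.1 letters, on the other strand, 10 bases past it. Those in Myd88 are the interferon core 40 bases before it. Tlr6 and Tlr8 also held the interferon core, first at 115 and 67 bases before the start, while Tlr2 and Tlr13, which rose strongly, held none of the patterns in this window. Tlr1 and Tlr6 each had another annotated start, whose stretch held none of the patterns either. Of 32851 promoters of this length 3.202% hold the PU.1 letters, 8.56% the interferon core and 7.808% the AP-1 letters. A match is a description of the sequence only.

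**Figure D1:**
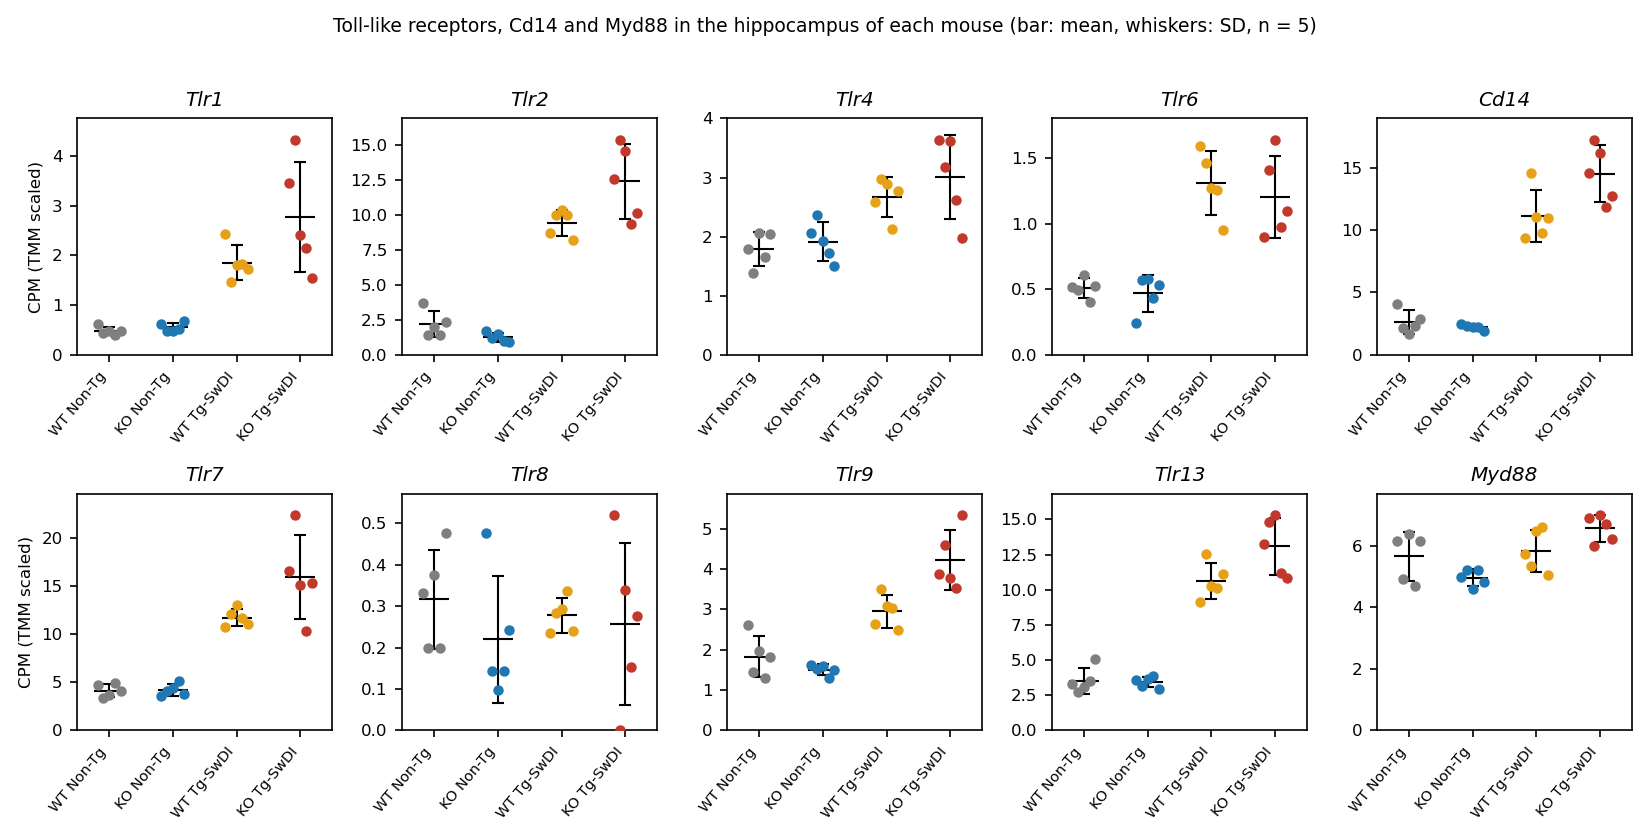
CPM (y axis, TMM scaled, from 0) of the 10 genes in each mouse of the 4 groups (x axis), 1 point per mouse, with the group mean as a bar and the SD as whiskers (n = 5). Tlr1, Tlr2, Tlr6, Tlr7, Tlr13 and Cd14 sit higher in every Tg-SwDI mouse than in any Non-Tg mouse, while Myd88 moves little and Tlr8 reaches at most 0.520 CPM. Set against microglial markers, Myd88 was lower with the transgene in both genotypes and Tlr4 was lower in KO mice. So were 94.4% of all genes in KO mice and 91.7% in WT mice.

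Tg-SwDI mice had more transcript of nearly the whole set than Non-Tg mice on library scaling. With libraries scaled to microglial markers, Myd88 in both genotypes and Tlr4 in KO mice were called lower. So were 94.4% of all genes in KO mice and 91.7% in WT mice. The values of Tlr4 and Tlr9 in WT mice were then below 0 with intervals that span it. On library scaling 9 of the 9 genes tested were called higher in KO mice (edgeR quasi-likelihood test, Benjamini-Hochberg adjusted p under 0.05 over all 16107 genes), where 12.5% of all genes tested were. In WT mice 7 of 9 were called higher against 3.94% of all genes, the exceptions being Tlr4 and Myd88. The median log2 fold change of the 9 was 1.92 in KO mice and 1.502 in WT mice, with a median over all genes of -0.00 and 0.00. In 8 of the 9 genes every KO Tg-SwDI mouse was above every KO Non-Tg mouse, as in 8.47% of all genes, and the corresponding count in WT mice was 7 of 9 against 5.1%. Tlr1, with 8 to 14 counts in each Non-Tg library, passed the filter only through the Tg-SwDI groups, and Tlr8 did not pass. The counts out of 9 carry this limit. These are bulk values, in which more cells of a type and more RNA per cell cannot be told apart.

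Among the surface receptors Tlr2 moved most. It read 3.69, 1.39, 2.02, 1.45 and 2.34 CPM without the transgene in WT mice and 8.68, 9.97, 10.4, 9.99 and 8.17 CPM in WT mice with it. The KO mice gave 1.67, 1.23, 1.49, 1.01 and 0.918 CPM without the transgene and 12.5, 15.4, 14.6, 9.33 and 10.1 CPM with it. No Tg-SwDI mouse came near a Non-Tg mouse in either genotype. The log2 fold change was 3.29 (SE 0.22, adjusted p = 9.26e-11, edgeR) in KO mice and 2.11 (SE 0.20, adjusted p = 1.35e-07, edgeR) in WT mice.

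Cd14, which hands lipopolysaccharide to Tlr4 and also serves Tlr2 and the endosomal receptors, was close behind. WT Non-Tg mice had 4.11, 2.18, 1.69, 2.30 and 2.91 CPM and WT Tg-SwDI mice 9.34, 14.6, 11.04, 9.75 and 10.9 CPM. KO Non-Tg mice had 2.49, 2.27, 2.27, 2.25 and 1.89 CPM and KO Tg-SwDI mice 14.6, 17.3, 16.2, 11.8 and 12.8 CPM. Again the transgenic and non-transgenic groups were fully apart. Cd14 rose by a log2 fold change of 2.70 (SE 0.17, adjusted p = 2.47e-11, edgeR) in KO mice and 2.07 (SE 0.17, adjusted p = 5.78e-09, edgeR) in WT mice.

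Tlr1, the partner of Tlr2 for triacylated lipopeptides, was low in Non-Tg mice, with 8 to 14 counts in each of the 10 libraries. WT Tg-SwDI mice had 2.44, 1.47, 1.82, 1.83 and 1.72 CPM and KO Tg-SwDI mice 3.45, 4.33, 2.41, 2.15 and 1.54 CPM, all above the highest Non-Tg value of 0.677 CPM. The lowest of the KO Tg-SwDI values belongs to the library rich in mitochondrial counts. The log2 fold change of Tlr1 was 2.31 (SE 0.25, adjusted p = 6.86e-08, edgeR) in KO mice and 1.93 (SE 0.26, adjusted p = 8.29e-06, edgeR) in WT mice. Tlr6, which pairs with Tlr2 for diacylated lipopeptides and lies next to Tlr1 on chromosome 5, ranged from 0.239 to 0.610 CPM in Non-Tg mice and from 0.899 to 1.64 CPM in Tg-SwDI mice. Its log2 fold change was 1.35 in both genotypes (adjusted p = 0.000203 in KO mice and 0.000308 in WT mice, edgeR). Tlr1 and Tlr6 are recent copies of each other and share 454 stretches of 50 identical bases, 13.6% of those of Tlr1 and 12.3% of those of Tlr6, so their separate counts are uncertain by however such reads were assigned.

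Tlr4, the lipopolysaccharide receptor, changed least with the transgene on library scaling among the receptors of the set that passed the filter. It ranged from 1.39 to 2.06 CPM in WT Non-Tg mice, 1.499 to 2.37 CPM in KO Non-Tg mice, 2.12 to 2.98 CPM in WT Tg-SwDI mice and 1.98 to 3.64 CPM in KO Tg-SwDI mice. In WT mice the groups were apart but by a narrow gap, and in KO mice they overlapped. Tlr4 rose in KO mice (log2 fold change 0.65, SE 0.17, adjusted p = 0.00712, edgeR) and missed the threshold in WT mice (0.57, SE 0.17, adjusted p = 0.0565, edgeR), where several alternatives called it, among them the fit without the mitochondria-rich KO Tg-SwDI replicate 8 (0.57, adjusted p = 0.0260, edgeR), which called 8 of the 9 genes and 995 genes of all in place of 710. With the choroid plexus score in the fit the value in KO mice was nearly as large, 0.61, but no longer called (adjusted p = 0.0638, edgeR).

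The endosomal receptors split into a pair that rose about as much as each other, one that rose less, and one too sparse to pass the filter. Tlr7, a sensor of single-stranded RNA on the X chromosome, read 4.68, 3.37, 3.61, 4.89 and 4.10 CPM in WT Non-Tg mice and 10.7, 12.1, 13.05, 11.6 and 11.04 CPM in WT Tg-SwDI mice. In KO mice it read 3.59, 4.08, 4.39, 5.13 and 3.77 CPM without the transgene and 16.6, 22.4, 15.1, 10.3 and 15.3 CPM with it. The lowest Tg-SwDI mouse stood far above the highest Non-Tg mouse. The log2 fold change was 1.92 (SE 0.15, adjusted p = 6.18e-10, edgeR) in KO mice and 1.502 (SE 0.15, adjusted p = 1.57e-07, edgeR) in WT mice.

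Tlr13, which binds a bacterial ribosomal RNA sequence and is also X-linked, ran from 2.73 to 5.10 CPM over the 10 Non-Tg mice and from 9.10 to 15.3 CPM over the 10 Tg-SwDI mice, with no overlap. Its log2 fold change was 1.92 (SE 0.14, adjusted p = 6.75e-11, edgeR) in KO mice and 1.59 (SE 0.14, adjusted p = 7.48e-09, edgeR) in WT mice. Tlr9, the receptor for unmethylated CpG DNA, had 2.60, 1.44, 1.97, 1.30 and 1.81 CPM in WT Non-Tg mice and 2.63, 3.498, 3.09, 3.04 and 2.49 CPM in WT Tg-SwDI mice. KO mice had 1.63, 1.52, 1.59, 1.29 and 1.499 CPM without the transgene and 3.88, 4.59, 3.77, 3.54 and 5.34 CPM with it. The KO groups were wide apart, whereas among WT mice the highest Non-Tg value lay inside the Tg-SwDI range. Tlr9 rose by a log2 fold change of 1.48 (SE 0.17, adjusted p = 1.91e-07, edgeR) in KO mice and 0.69 (SE 0.17, adjusted p = 0.0114, edgeR) in WT mice, the latter call being lost without WT Non-Tg replicate 6 (adjusted p = 0.0529). Tlr8, the X-linked neighbour of Tlr7, had 0 to 11 counts per library in all 20 mice. Fitted without a filter, its log2 fold change between Tg-SwDI and Non-Tg was 0.25 (95% interval -0.73 to 1.23) in KO mice and -0.19 (-1.10 to 0.71) in WT mice, so a change of the size seen in Tlr7 lies outside both intervals.

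Myd88, the adaptor that most of the receptors share, had the smallest log2 fold change with the transgene among the 9 genes tested in each genotype on library scaling. Its levels were 6.14, 4.91, 6.38, 4.69 and 6.15 CPM in WT Non-Tg mice and 5.72, 5.34, 6.48, 6.61 and 5.07 CPM in WT Tg-SwDI mice, and these groups overlapped almost completely. The KO values were 4.97, 5.21, 4.58, 5.23 and 4.83 CPM without the transgene and 6.91, 5.996, 7.002, 6.71 and 6.22 CPM with it. Every KO Tg-SwDI mouse was above every KO Non-Tg mouse, by a small step. Myd88 rose in KO mice (log2 fold change 0.40, SE 0.10, adjusted p = 0.00726, edgeR) and the value in WT mice was 0.05 (SE 0.10, adjusted p = 0.899, edgeR). The KO call was lost with the choroid plexus score in the fit (log2 fold change 0.22, adjusted p = 0.248). The exons of Myd88 share 290 bases with Acaa1a on the opposite strand, and the strand setting of the counting is not given in the sources used here.

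**Figure D2:**
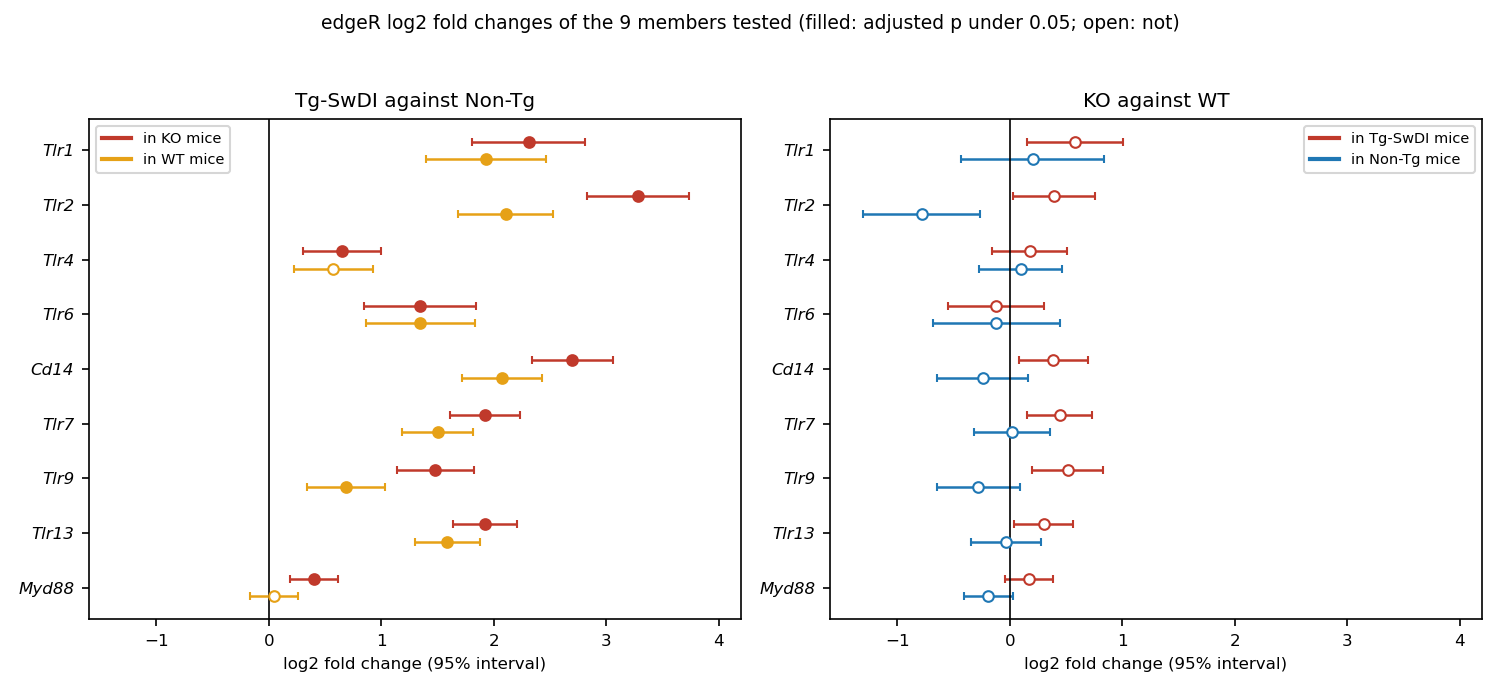
log2 fold changes (x axis) with 95% intervals for the 9 genes tested (y axis), Tg-SwDI against Non-Tg on the left and KO against WT on the right, with filled points where the adjusted p was under 0.05. Every point on the left is above 0 on library scaling (with scaling to microglial markers Tlr4 and Myd88 in both genotypes and Tlr9 in WT mice fall below it), and no point on the right is filled.

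Within Tg-SwDI mice, loss of miR-34a went with higher mean levels of 8 of the 9 genes on library scaling (5 of 9 when libraries were scaled to microglial markers), but none was called. That compares with 1.48% of all 16107 genes called higher, and the smallest adjusted p of the set was 0.0760, for Tlr9 (edgeR). Of the 9, 6 (Tlr1, Tlr2, Tlr7, Tlr9, Tlr13 and Cd14) were higher at an unadjusted p under 0.05, as were 10.8% of all genes tested. DESeq2 called 1 of the 9, Tlr9, and 733 genes of all where edgeR called 320. The edgeR count of all genes ran from 79 (without WT Tg-SwDI replicate 7) to 691 (without KO Tg-SwDI replicate 2) as single mice were left out. The median log2 fold change of the 9 genes was 0.39, beside 0.00 over all genes tested.

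Tlr9 was the only one of the 9 in which every KO Tg-SwDI mouse (3.54 to 5.34 CPM) was above every WT Tg-SwDI mouse (2.49 to 3.498 CPM), a separation shown by 2.04% of all genes. The highest WT and the lowest KO mouse were nearly level. Its log2 fold change was 0.51 (SE 0.15, unadjusted p = 0.00271, adjusted p = 0.0760, edgeR). The highest value came from the mitochondria-rich replicate 8, without which the log2 fold change was 0.42 (adjusted p = 0.166, edgeR). Tlr7 came next with 0.44 (SE 0.14, adjusted p = 0.0890, edgeR). Of the KO Tg-SwDI mice 4 of 5 exceeded the highest WT Tg-SwDI mouse for Tlr7, and replicate 5 lay below all WT Tg-SwDI mice. Without that mouse the Tlr7 value was 0.57 with an adjusted p of 0.0147 (edgeR), and without KO Tg-SwDI replicate 2 it was 0.30, not called. Tlr1 differed by 0.58 (SE 0.21, adjusted p = 0.127, edgeR). This became 0.74 (adjusted p = 0.0394, edgeR) without the mitochondria-rich replicate 8 and 0.38 (adjusted p = 0.249, edgeR) without KO Tg-SwDI replicate 2.

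The other values were smaller. Tlr2 differed by 0.39 (SE 0.18, adjusted p = 0.227), Cd14 by 0.39 (SE 0.15, adjusted p = 0.1595) and Tlr13 by 0.30 (SE 0.13, adjusted p = 0.195) on the log2 scale (edgeR). Tlr4 gave 0.18 (95% interval -0.16 to 0.51) and 0.30 without replicate 8 (adjusted p = 0.3499, edgeR), Myd88 0.17 (-0.04 to 0.38) and Tlr6 -0.12 (-0.55 to 0.31). These intervals leave room for modest changes of either sign. Tlr8 gave -0.08 (-1.02 to 0.87) in the fit without a filter.

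In Non-Tg mice, where the amyloid transgene is absent, loss of miR-34a left all 9 genes overlapping between the groups. None was called and no gene of the 16107 was (0% higher, smallest adjusted p 0.259, edgeR), with 1302 genes at an unadjusted p under 0.05. DESeq2 called 7 genes and edgeR's exactTest 4, none of them among the 9. Tlr2 alone had an unadjusted p under 0.05, with 2.18 ± 0.933 CPM in WT and 1.27 ± 0.319 CPM in KO mice (log2 fold change -0.78, SE 0.25, unadjusted p = 0.00469, adjusted p = 0.508, edgeR), and 4.51% of all genes were lower at that level. WT Non-Tg replicate 2 had the highest level of its group, 3.69 CPM, and without it the log2 value was -0.51. Complete separation upward was shown by 0 of the 9 and by 1.33% of all genes. The downward share of all genes was not computed. The choroid plexus markers were lower in KO mice between the same groups, 10 of 10 at an unadjusted p under 0.05, and with their score in the fit the Tlr2 value was -0.73 (adjusted p = 0.9999). Tlr1 (0.20), Tlr4 (0.10) and Tlr7 (0.02) had values above 0, and Tlr6 (-0.12), Tlr13 (-0.04), Myd88 (-0.19), Cd14 (-0.24) and Tlr9 (-0.28) below it on the log2 scale.

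The difference between the KO effects with and without the transgene asks whether the transgene and the loss of miR-34a add up or interact. None of the 9 genes was called for it, against 0.428% of all genes called in the positive direction. The number of all genes called in either direction was 98, and it ran from 14 (without KO Non-Tg replicate 7) to 474 (without KO Tg-SwDI replicate 2), was 213 without KO Tg-SwDI replicate 8 and was 482 with DESeq2. Of the 9, 4 (Tlr2, Tlr9, Cd14 and Myd88) were positive at an unadjusted p under 0.05, as were 9.38% of all genes. Tlr2 had the largest value, 1.18 (SE 0.30, adjusted p = 0.0664, edgeR), made of -0.78 in Non-Tg and 0.39 in Tg-SwDI mice, and it was 0.90 (adjusted p = 0.143, edgeR) without WT Non-Tg replicate 2. It fell under the threshold in DESeq2 (1.18, adjusted p = 0.00664) and without KO Tg-SwDI replicate 8 (1.24, adjusted p = 0.04997, edgeR), and with the choroid plexus score in the fit it was 1.13 with an adjusted p of 0.1596 (edgeR). Tlr9 followed with 0.79 (SE 0.24, adjusted p = 0.103), Cd14 with 0.63 (SE 0.25, adjusted p = 0.195) and Myd88 with 0.36 (SE 0.15, adjusted p = 0.210) in edgeR. The remaining receptors had adjusted p-values of 0.309 or more.

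Microglial transcripts rose in the same mice, so the genes were also set against them. The 14 microglial markers read, among them P2ry12, Tmem119, Cx3cr1 and Csf1r, summed to 492 ± 45.4 CPM (WT) and 469 ± 13.3 CPM (KO) without the transgene and to 955 ± 62.5 CPM (WT) and 1201 ± 129 CPM (KO) with it. Csf1r was their most abundant gene in WT Non-Tg mice and none was at 0 in any library. Between KO and WT Tg-SwDI mice 4 of the 14 were called higher and the summed levels did not overlap (1053 to 1363 against 852 to 1015 CPM). Scaling the libraries to these 14 genes lowered the median gene by 1.27 in KO and 0.84 in WT mice on the log2 scale in the Tg-SwDI comparison. On that scale Tlr1, Tlr2, Tlr7, Tlr13 and Cd14 still rose in both genotypes, 5 of 9 where 1.33% of all genes did so in KO mice and 0.975% in WT mice. The scaling lowers most genes, which by itself makes these shares small, so they do not show whether the 5 outpaced other microglial genes. Tlr1 carries the limit of the filter given above. Tlr2 exceeded the markers by 2.01 (SE 0.17) in KO and 1.29 (SE 0.16) in WT mice, Cd14 by 1.42 (SE 0.15) and 1.25 (SE 0.15), and Tlr1 by 1.03 (SE 0.25) and 1.12 (SE 0.26), all with adjusted p-values of 0.000172 or less (edgeR). The X-linked pair was closer to the markers, Tlr7 at 0.64 and 0.66 and Tlr13 at 0.65 and 0.76 on the log2 scale.

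Tlr9 did not differ detectably from the microglial markers, with 0.22 (95% interval -0.13 to 0.57) in KO and -0.14 (-0.48 to 0.21) in WT mice, and Tlr6 gave 0.08 (-0.47 to 0.63) and 0.52 (-0.00 to 1.05). Tlr4 fell behind them in KO mice (-0.63, SE 0.17) and had -0.25 (-0.61 to 0.10) in WT mice. Myd88 fell behind them in both (-0.86, SE 0.12, and -0.79, SE 0.12). Being lower than the markers was the rule on this scale, at 94.4% of all genes in KO mice and 91.7% in WT mice, so it says nothing particular to Tlr4 or Myd88. In the KO against WT comparison of Tg-SwDI mice the same scaling took the 9 values to between -0.43 (Tlr6) and 0.26 (Tlr1) with no call, and turned Tlr4, Tlr13 and Myd88 below 0. In the interaction it left Tlr2 at 0.71 (SE 0.24, adjusted p = 0.0124, edgeR), a positive call shared with 0.335% of all genes. That value was smaller than the 1.18 (SE 0.30) on library scaling, where Tlr2 was not called. On the microglial scale 8745 genes of all were called, 8691 of them lower, which makes the adjustment less strict.

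**Figure D3:**
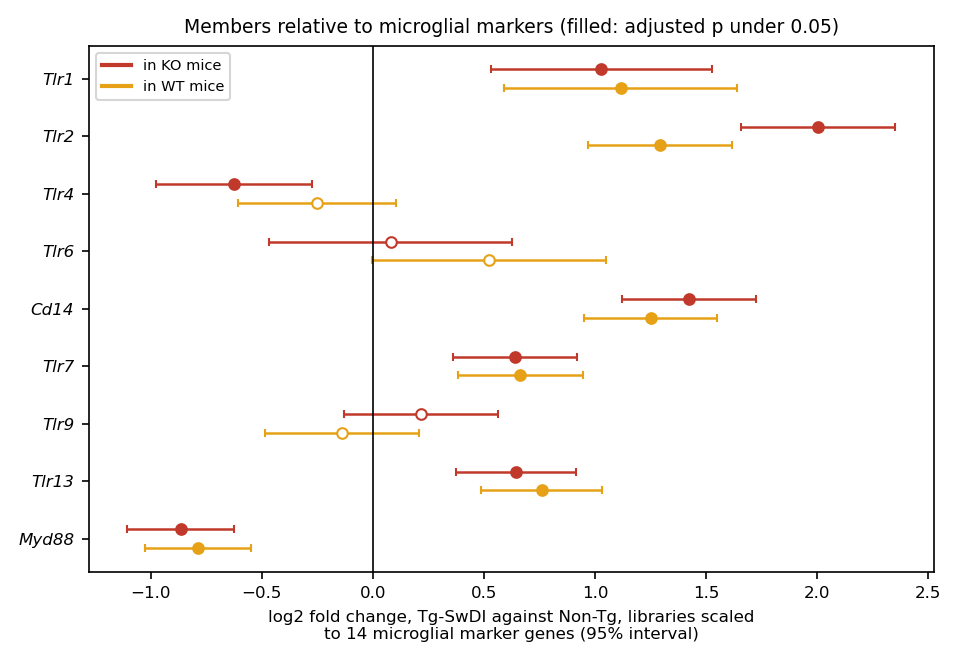
log2 fold change of Tg-SwDI against Non-Tg (x axis, 95% intervals) for the 9 genes (y axis) after scaling the libraries to 14 microglial markers, so that 0 stands for moving with the markers. Tlr1, Tlr2, Cd14, Tlr7 and Tlr13 lie above 0 in both genotypes, Myd88 lies below in both and Tlr4 below in KO mice. On this scale 94.4% of all genes in KO mice and 91.7% in WT mice were called lower.

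Some of these receptors are also made by other cells, whose markers were read beside them, and the part of these cells in the receptor values was not tested. Neutrophil markers (S100a8, S100a9, Ngp, Camp, Ly6g, Retnlg and Mmp8) summed to at most 1.46 CPM in any library with at least 1 of the 7 at 0 in all 20 libraries, and 0 of 7 passed the filter, and the B cell and T cell markers passed in 0 of 4 each with sums of at most 1.03 and 1.13 CPM. Of the monocyte markers 1 of 4 passed, with sums of at most 1.53 CPM and no call in any comparison. Border macrophage markers, led by Mrc1, passed in 8 of 8, summed to 11.5 ± 3.12 CPM in WT Non-Tg and 14.6 ± 4.51 CPM in KO Tg-SwDI mice, and gave 0 calls. Between WT (10.5 ± 2.29 CPM) and KO Tg-SwDI mice, however, their median log2 fold change was 0.52, above the 0.39 of the 9 genes, with 3 of 8 at an unadjusted p under 0.05. Astrocyte markers moved with the transgene, 4 of 6 called higher in each genotype, Gfap from 357 to 1705 CPM in KO mice, and Gfap also rose with miR-34a loss in Tg-SwDI mice (log2 fold change 0.51, adjusted p = 0.0412, edgeR). Of the endothelial markers Ly6c1 alone was called in KO against WT Tg-SwDI mice (0.46, adjusted p = 0.00702, edgeR), and of the 6 hippocampal neuron markers none was called in any comparison. Choroid plexus markers were called in 8 of 10 for Tg-SwDI against Non-Tg in KO mice, with Ttr the most abundant, and in 0 of 10 in the other comparisons. The blood markers (haemoglobins and Alas2) summed to between 1.55 and 22.7 CPM, and 0 of the 4 tested were called. In that comparison the choroid plexus score in the fit left 7 of the 9 genes called, where 1265 genes of all were called in place of 3351. Tlr4 kept its size (0.61 against 0.65 on the log2 scale) and Myd88 had 0.22 against 0.40, neither called.

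The rest of the receptor pathway was read from lists of genes grouped by role. Of the Toll-like receptors outside the set, Tlr3, the endosomal sensor of double-stranded RNA that signals without Myd88, read 20.8 ± 2.79, 20.2 ± 0.981, 24.9 ± 1.32 and 31.3 ± 1.96 CPM in WT Non-Tg, KO Non-Tg, WT Tg-SwDI and KO Tg-SwDI mice. It was the one receptor called in KO against WT Tg-SwDI mice (log2 fold change 0.33, SE 0.07, adjusted p = 0.0181, edgeR), with every KO mouse above every WT mouse. Tlr12, a profilin sensor, rose with the transgene in KO (1.83, adjusted p = 1.82e-06) and WT mice (1.02, adjusted p = 0.00429, edgeR), Tlr5 passed the filter without a call and Tlr11 was nearly absent at a highest level of 0.142 CPM.

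A group of 5 genes helps the surface receptors to hold their ligands, and 3 of them were called higher with the transgene in KO mice (12.5% of all genes) and 2 in WT mice (3.94% of all genes). Ly86 and Cd180, which form a complex related to the Tlr4 co-receptor, went from 10.9 to 71.2 CPM and from 3.42 to 22.6 CPM in KO mice (log2 fold changes 2.71 and 2.72, adjusted p = 2.47e-11 and 3.74e-11, edgeR). Lbp, the lipopolysaccharide-binding protein, had 1.72 in KO mice (SE 0.53, adjusted p = 0.0304) and 0.10 in WT mice, with overlapping groups, and its mean was lowest in KO Non-Tg mice (5.98 CPM), as were the choroid plexus markers. Ly96, the Tlr4 co-receptor MD-2, was at 0.622 to 0.911 CPM in the group means and was not called.

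Of 11 genes that fold, carry or feed the endosomal receptors 6 rose with the transgene in KO mice and 5 in WT mice, beside 12.5% and 3.94% of all genes. Slc15a3, a lysosomal transporter of histidine and bacterial peptides, went from 1.70 to 12.6 CPM in KO mice (log2 fold change 2.89, SE 0.16, adjusted p = 5.92e-13, edgeR). It was also higher in KO than WT Tg-SwDI mice (0.56, SE 0.14, adjusted p = 0.0342), as was the endolysosomal nuclease Pld4 (0.45, SE 0.10, adjusted p = 0.0247, edgeR). Unc93b1, the chaperone that delivers Tlr7 and Tlr9 to endosomes, read 16.3 ± 3.06, 13.8 ± 0.692, 28.2 ± 1.40 and 35.2 ± 3.79 CPM in WT Non-Tg, KO Non-Tg, WT Tg-SwDI and KO Tg-SwDI mice. It was called for the interaction (0.57, SE 0.13, adjusted p = 0.0402, edgeR), with -0.25 in Non-Tg and 0.32 in Tg-SwDI mice, neither of them called alone. Dnase2a, a lysosomal DNase, rose by 1.099 in KO mice, and the RNases Rnaset2a and Rnaset2b by 0.97 and 0.77 (edgeR, adjusted p = 0.000212 or less), the last pair being near-identical copies whose separate counts are uncertain.

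Of 16 adaptor and signalling genes 9 rose with the transgene in KO mice and 3 in WT mice, beside 12.5% and 3.94% of all genes, with list medians of 0.28 and 0.11 beside -0.00 and 0.00 over all genes. Btk and Pik3ap1, which couple the receptors to phosphoinositide signalling, and the Tlr4 adaptor Ticam2 had the largest values in KO mice, 1.80, 1.46 and 1.35. Irf5, the transcription factor that Myd88 activates, read 4.76 ± 0.685, 3.78 ± 0.307, 8.34 ± 1.29 and 10.7 ± 0.573 CPM across the 4 groups in the order used for Unc93b1 and was called for the interaction (0.70, SE 0.16, adjusted p = 0.0402, edgeR). The kinase Irak1 was the only gene of this list called in KO against WT Tg-SwDI mice (0.21, SE 0.05, adjusted p = 0.0262, edgeR). Among 8 negative regulators 4 rose in KO and 3 in WT mice, beside the same shares of all genes, with Cd300lf from 0.144 to 0.943 CPM, Il1rl1 from 0.297 to 1.07 CPM and Irak3, which blocks the Myd88 complex, from 1.46 to 2.62 CPM in KO mice. The mean Cd300lf and Il1rl1 levels in KO Non-Tg mice lay below the filter's minimum count of 10. These genes thus passed the filter through other groups, and the count of 4 carries this limit.

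Early target genes of the pathway were mostly too scarce to test, with 7 of 15 passing the filter and 3 called higher with the transgene in each genotype, again beside 12.5% and 3.94% of all genes. The chemokine Ccl3 read 0.481 ± 0.341, 0.288 ± 0.0600, 6.80 ± 0.932 and 12.96 ± 4.51 CPM in the same group order. Every KO Tg-SwDI mouse (7.69 to 17.8 CPM) was above every WT Tg-SwDI mouse (5.35 to 7.60 CPM), and the log2 fold change between them was 0.93 (SE 0.22, adjusted p = 0.0342, edgeR). Ccl4 went from 0.0765 to 1.87 CPM and Icam1, a leukocyte adhesion protein, from 3.16 to 7.87 CPM with the transgene in KO mice (adjusted p = 3.53e-07 and 1.69e-06, edgeR). The mean Ccl3 and Ccl4 levels in KO Non-Tg mice lay below the filter's minimum count of 10. Both genes thus passed the filter through other groups, and the counts of genes passed and called carry this limit.

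Over the 20 mice the 9 genes moved together to different degrees, and since the 4 groups differ strongly these correlations mainly describe the groups. Pearson's r of log2 CPM was 0.98 for Tlr2 with Cd14 and 0.98 for Tlr13 with Cd14, and lowest for Myd88, from 0.58 with Tlr6 to 0.73 with Tlr9. Tlr4 ranged from 0.59 with Myd88 to 0.84 with Tlr13. The genes most like each member were Gpr34 for Tlr1 (r = 0.98), Ly86 and Hpgd for Tlr2 (0.99 each), Vsir and Ccl6 for Cd14 (0.99 each) and Fcgr2b and Vsir for Tlr13 (0.98 each). Tlr7 was closest to Plek and Cd53 (0.98 each) and Tlr9 to Clu and Lcp1 (0.97 and 0.96). Tlr4 was closest to Gm5431 and Ifi204 (0.93 each), Tlr6 to Lgals3 and Retsat (0.92 each) and Myd88 to Fam129b and C1rl (0.90 each). The mean of the 9 standardised genes was followed most closely by Ctsz, Cd9, C1qa, Ctsl and C1qc (r = 0.99 each).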

How the data were processed

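Total RNA from the left hippocampus of 20 mice was sequenced, and the authors deposited 1 table of raw read counts per gene, whole numbers with no normalization. Per the submitters' notes and the study's methods, reads were aligned with STAR to mm10 and counted with featureCounts. The strand setting and the treatment of reads that fit several places are not given in the sources used here. Symbols were matched to 38872 of 39056 gene identifiers. Genes were kept with edgeR's filterByExpr (minimum count 10, minimum total 15), libraries were scaled by TMM, and all 20 were fitted together by group with edgeR's quasi-likelihood test (16 residual degrees of freedom). p-values were adjusted by Benjamini-Hochberg over all 16107 genes and called under 0.05. Standard errors were derived from the F statistic, and CPM used no prior count while correlations used log2 CPM with a prior count of 2. The tests were checked on simulated data for KO against WT in Tg-SwDI mice. There the edgeR quasi-likelihood test called 87% of genes given a log2 change of 1 and 20% of those given 0.5. The 10 genes, the marker and the pathway lists were chosen with earlier results of these data known. Named genes were all 10 members, the list genes called or with the largest changes, and the 2 genes most correlated with each member (5 for their mean). For Tlr1 only 1 of these is given, and the other is not reported here. Each library is 1 mouse. The study bred its cohorts as littermates, the labels used here do not say which mice shared a litter, and litter was not in the fit. Alternatives were DESeq2, edgeR's exactTest, other filters, other scalings including one to 14 microglial markers, the 10 compared mice alone, a replicate block, a choroid plexus covariate and leaving out each mouse. Versions were R 4.3.3, edgeR 4.0.16, limma 3.58.1 and DESeq2 1.42.0.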

Additional observations from a re-analysis of the deposited data

Results flagged for a closer look

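Among 52 groups of 5 mice examined for a value standing apart from the rest (Dixon's test, which flags about 1 in 20 groups by chance), 2 were picked out, and none of the 40 groups that hold a member's levels. KO Tg-SwDI replicate 8 had 14.6% of its counts on mitochondrial genes, with the next mouse of its group at 8.76%. WT Tg-SwDI replicate 7 had choroid plexus markers summing to 119 CPM, with the next lowest mouse of its group at 3209 CPM.

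Of the list genes, 4 had an effect of miR-34a loss that differed between Tg-SwDI and Non-Tg mice (interaction term, edgeR quasi-likelihood test, adjusted p under 0.05). The log2 difference was 0.56 for the microglial marker Csf1r, 0.49 for the microglial marker Selplg, 0.57 for the receptor chaperone Unc93b1 and 0.70 for the transcription factor Irf5.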

How the results depend on the processing

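The calls for Tg-SwDI against Non-Tg held for Tlr1, Tlr2, Tlr7, Tlr13 and Cd14 under every alternative run in both genotypes, while those of Tlr4 and Myd88 in KO mice did not. Tlr6 and Tlr9 lost theirs with scaling to microglial markers in KO (0.0797 and 0.22) and WT mice (0.52 and -0.14), and Tlr9 in WT mice also without WT Non-Tg replicate 6. Between KO and WT Tg-SwDI mice the count of called members went from 0 to 1 with DESeq2 (Tlr9, adjusted p = 0.0490) and with the choroid plexus covariate (Tlr9, adjusted p = 0.0470), and ran from 0 to 1 over the mice left out (Tlr7 without KO Tg-SwDI replicate 5, Tlr1 without replicate 8). In the interaction it went from 0 to 1 (Tlr2) with DESeq2 and with scaling to microglial markers, and ran from 0 to 1 over the mice left out (Tlr2 without WT Non-Tg replicate 3 or 6 or KO Tg-SwDI replicate 2, 5 or 8). Genes called among all tested between KO and WT Tg-SwDI mice numbered 320, but 733 with DESeq2, 8871 with scaling to microglial markers, 57 with the 10 compared mice alone and 559 with the covariate, and ran from 79 to 691 over the mice left out. Several single mice moved it by more than 1.5 times, namely WT Tg-SwDI replicates 3 (133), 5 (130), 6 (191) and 7 (79) and KO Non-Tg replicate 4 (208), KO Tg-SwDI replicate 3 (210) and replicate 2 (691). In the interaction 98 genes were called, with 14 to 474 over the mice left out, 482 with DESeq2 and 8745 with scaling to microglial markers. The causes were not tested.

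Scaling to microglial markers moved the values of all genes in a comparison by about the same amount, and it turned these log2 values. Between KO and WT they became -0.14 (Tlr4), -0.0113 (Tlr13) and -0.13 (Myd88) in Tg-SwDI mice and 0.0161 (Tlr6) and 0.10 (Tlr13) in Non-Tg mice. For Tg-SwDI against Non-Tg they became -0.63 (Tlr4) and -0.86 (Myd88) in KO mice and -0.25 (Tlr4), -0.14 (Tlr9) and -0.79 (Myd88) in WT mice. In the interaction they became -0.0862 (Tlr1), -0.37 (Tlr4), -0.0223 (Tlr7), -0.11 (Tlr13) and -0.0777 (Myd88). The median gene moved by -0.30 between KO and WT Tg-SwDI mice, 0.12 between KO and WT Non-Tg mice and -0.43 in the interaction. The choroid plexus covariate turned Tlr6 to 0.0088 and Tlr7 to -0.0818 (KO against WT, Non-Tg) and Myd88 to -0.01 (Tg-SwDI against Non-Tg, WT). The interaction of Tlr6 became 0.0070 with no filter and 0.0028 with RLE size factors. With mice left out, values near 0 crossed it, namely KO against WT in Non-Tg mice for Tlr6 (-0.20 to 0.0458), Tlr7 (-0.0614 to 0.0873) and Tlr13 (-0.11 to 0.14), Myd88 for Tg-SwDI against Non-Tg in WT mice (-0.0141 to 0.0926) and the interaction of Tlr6 (-0.17 to 0.0917). The exactTest gives no interaction. With a prior count of 0.5 in the correlations, the second gene of Tlr6 was Fgr and the genes of Tlr2 were Hpgd and Slc11a1.

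Replicate numbers recur across groups, but same-numbered libraries did not deviate together: 16 same-numbered pairs had a median correlation of -0.04 and 2 exceeded 0.1, against 0.01 and 25 of 134 other pairs. The labels do not say what the numbers stand for, and a shared litter or batch was not tested. With a replicate block 0 members and 8 genes of all were called between KO and WT Tg-SwDI mice, 8 members for Tg-SwDI against Non-Tg in each genotype (Myd88 not called in KO mice, Tlr4 called in WT mice, with 2538 and 709 genes of all) and 0 in the interaction. KO against WT in Non-Tg mice became 0.0278 for Tlr6 and 0.0202 for Tlr13 under the block.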
